A study of Mus musculus with 2 samples.

Results

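Heat shock and endoplasmic reticulum (ER) chaperones were followed in mononuclear cells of mouse liver with and without growth of a colon tumor in that organ. The members were 10 genes chosen by symbol, of 28692 genes in the files: Hspa1a, Hspa1b, Dnajb1, Hsph1, Hsp90aa1, Hsp90ab1, Hspa8, Hspa5, Hsp90b1 and Hspd1. All 10 had at least 50 unique molecular identifiers (UMIs, each marking 1 captured transcript) in each library. There were 2 groups of C57BL/6 mice with 1 library each, made from the pooled livers of 3 mice at day 14. In the MC38 group, the spleen had been injected with 500000 tumor cells of the line MC38, which comes from a colon adenocarcinoma of a mouse, and had then been removed. In the control group, buffer (PBS) had been injected into the spleen and the label states no tumor. The protocol text of both groups is the same and also gives 3000000 MC38 cells under the skin, so it cannot be told whether control mice carried a tumor under the skin or kept their spleens. No age of the mice is stated. Livers were minced and filtered, hepatocytes were depleted by slow spins, and mononuclear cells were taken from a density gradient before droplet capture and 5-prime sequencing.

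Chaperones bind unfolded proteins and help them to fold. In the cytosol, the constitutive Hsc70 (Hspa8) and the stress-inducible Hsp70 (Hspa1a and Hspa1b) work with J-domain cochaperones such as Dnajb1 and with the nucleotide exchange factor Hsp110 (Hsph1), and hand clients to Hsp90 (Hsp90aa1, the inducible form, and Hsp90ab1, the constitutive form). Heat shock factor 1 switches on the inducible genes when unfolded protein gathers in the cytosol. BiP (Hspa5) and Grp94 (Hsp90b1) serve the ER lumen and answer to the unfolded protein response, and they are abundant in cells that secrete much protein. Hsp60 (Hspd1) folds proteins in the mitochondrial matrix. In single-cell work the inducible Hsp70 genes are also known to respond to the handling of tissue.

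The MC38 library held 19822 barcodes with a median of 3141.5 UMIs, and the control library held 14258 barcodes with a median of 5470.5 UMIs; 63 barcode sequences occurred in both. Barcodes with at least 200 genes, at most 10% mitochondrial UMIs and no doublet call were kept, 11855 in the MC38 library and 3439 in the control library. A class was given to a barcode by counting distinct cell type markers, and 6742 MC38 and 3011 control barcodes fell in an immune class. In every class compared, at least as many of the class's own markers as of any other class's markers were among its 10 leading genes. Markers of the plasma cell took 2 of those places in control B cells, and hemoglobin genes took 3 in control Kupffer cells. Only 1 barcode of the MC38 library and 0 of the control library passed the gate for epithelial or tumor cells. Levels are UMIs per 1000000 (CPM) of the non-mitochondrial UMIs of a class. A member was called higher or lower at 1.5-fold or more where both libraries together held at least 50 of its UMIs. Each group is a single library, so the groups could not be tested against each other: the 95% intervals cover counting error only, and no difference has a replicate check. Over all immune-gated barcodes the median gene was at log2 -0.17, over B cells at -0.11 and over mast cells or basophils at -0.15, MC38 over control.

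The promoters of the inducible pair and of the ER pair are shown because the results turn on these members. In the RefSeq table (build GRCm38.p6), 7 of the 10 members had an entry of 300 bases, and Hspa8, Hsp90aa1 and Hsp90ab1 had none. Hspa1a (chr17:34969190-34972156, minus strand, GENCODE M21) and Hspa1b (chr17:34956436-34959238, minus strand) are neighbouring copies, and their entries differed at 4 of 300 bases. The capitals mark the letters GAANNTTC, 2 facing units of the heat shock element to which heat shock factor 1 binds, 104 bases before each gene's start. In 5-prime to 3-prime order, chr17:34972208-34972305 and chr17:34959290-34959387, both on the minus strand, read:
Hspa1a: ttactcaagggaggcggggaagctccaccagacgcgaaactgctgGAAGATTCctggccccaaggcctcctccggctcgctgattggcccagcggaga
Hspa1b: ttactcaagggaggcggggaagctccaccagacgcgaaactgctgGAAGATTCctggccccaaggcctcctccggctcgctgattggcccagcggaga
The next pair carries in capitals the ER stress element (CCAAT, any 9 bases, CCACG), at chr2:34772020-34772048 (plus strand) before the start of Hspa5 in the RefSeq table and at chr10:86705633-86705661 (minus strand) before Hsp90b1:
Hspa5: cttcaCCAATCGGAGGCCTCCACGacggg
Hsp90b1: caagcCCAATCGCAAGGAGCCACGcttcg
GAANNTTC, which reads the same on both strands, occurred in 7.86% of the 32851 promoters of the table. Besides Hspa1a and Hspa1b, Hsph1 and Hspd1 held it. The other arrangement, TTCNNGAA, which also reads the same on both strands and overlaps the first in longer repeats, occurred in 8.52% and was found in the entries of Hsph1 and Hspd1. Dnajb1 had an entry with neither. The ER stress element, searched on both strands, occurred in 0.119% of promoters and, among the members, once in Hspa5 and at 2 places in Hsp90b1, of which the one farther from the start is shown. The GENCODE M21 model of Hspa5 (chr2:34771970-34777547, plus strand) starts upstream of the start in the table, so the window shown lies inside that model. A match is a description of the letters and not evidence of binding.

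Among the members, the inducible Hsp70 pair differed most between the livers. Hspa1a and Hspa1b are summed here, since 49.3% of the runs of 90 bases in the Hspa1a transcript also occur in that of Hspa1b and reads from those runs cannot be assigned. Over all immune-gated barcodes the pair stood at 49.5 CPM (3000 UMIs) in the MC38 library, against 181 CPM (4564 UMIs) in the control library (log2 -1.87, interval -1.94 to -1.80). In T cells it was at 38.5 CPM (205 UMIs) in the MC38 library, against 125 CPM (988 UMIs) in the control library (log2 -1.70, interval -1.92 to -1.48). Classical monocytes, the largest immune class of the MC38 library, had 51.0 CPM (2034 UMIs) in the MC38 library, against 249 CPM (1700 UMIs) in the control library (log2 -2.29, interval -2.38 to -2.19). The levels of the MC38 library were lower in both, and the intervals of the levels did not overlap.

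**Figure D1:**
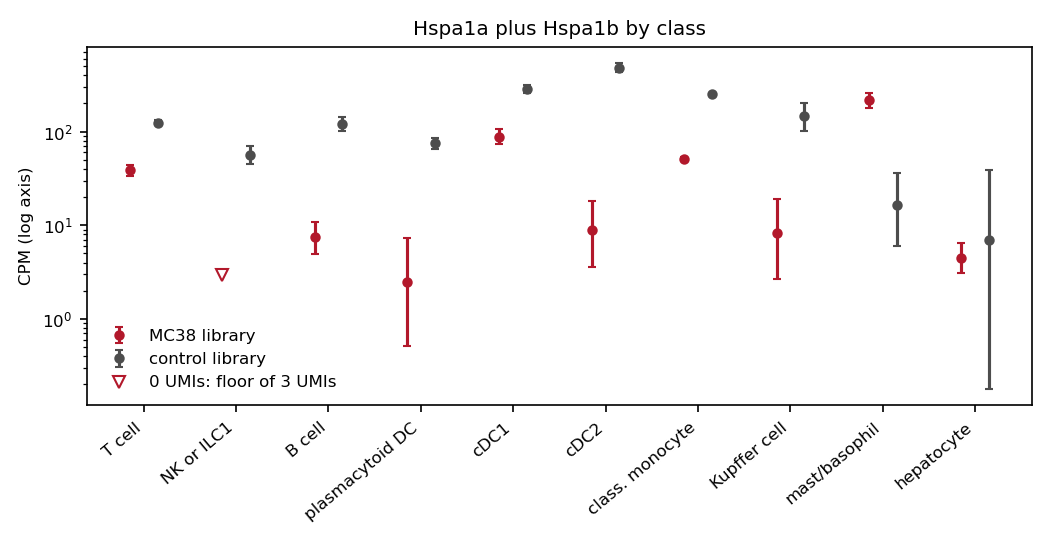
Summed level of Hspa1a and Hspa1b (CPM, log axis) in each class with at least 50 barcodes in both libraries, MC38 left of control, with exact Poisson 95% intervals; the open triangle marks the level that 3 UMIs would give where the MC38 library had 0. The MC38 point lies below the control point in every class but mast cells or basophils, where it is above, and in hepatocytes the intervals overlap.

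In dendritic cells the pair was lower in the MC38 library as well. Type 1 conventional dendritic cells (cDC1), which cross-present antigen, had 88.1 CPM (122 UMIs) in the MC38 library, against 286 CPM (469 UMIs) in the control library (log2 -1.70, interval -2.00 to -1.41). Type 2 conventional dendritic cells (cDC2) had 8.87 CPM (7 UMIs) in the MC38 library, against 483 CPM (356 UMIs) in the control library (log2 -5.77, interval -7.09 to -4.71). Plasmacytoid dendritic cells, known for type I interferon, had 2.51 CPM (3 UMIs) in the MC38 library, against 75.1 CPM (222 UMIs) in the control library (log2 -4.90, interval -7.19 to -3.34). The MC38 values of cDC2 and plasmacytoid cells rest on under 10 UMIs each.
B cells had 7.46 CPM (27 UMIs) in the MC38 library, against 120.0 CPM (139 UMIs) in the control library (log2 -4.01, interval -4.66 to -3.40). Natural killer (NK) cells or type 1 innate lymphoid cells had 0 UMIs in the MC38 library, against 87 UMIs (56.4 CPM) in the control library. Set against a floor of 3 UMIs in the class of that library, and with the control level taken as measured, the NK level was at least 19.4-fold lower in the MC38 library; the exact interval of the ratio, which also counts the error of the control level, ends at log2 -3.95. Kupffer cells, resident macrophages of the liver, had 8.23 CPM (5 UMIs) in the MC38 library, against 145 CPM (34 UMIs) in the control library, under the 50 UMIs asked for a call (log2 -4.14, interval -5.85 to -2.78). Erythroid markers summed to 161 CPM in MC38 and 12741 CPM in control Kupffer cells, and their part in the pair's level was not tested. Hepatocyte-gated barcodes had 4.51 CPM (31 UMIs) in the MC38 library, against 7.05 CPM (1 UMI) in the control library (log2 -0.64, interval -3.23 to 4.71), and no difference was detectable there at this depth.
Mast cells or basophils went the other way, with 216 CPM (116 UMIs) in the MC38 library, against 16.5 CPM (6 UMIs) in the control library (log2 3.71, interval 2.55 to 5.19). By share of barcodes the class was not higher in MC38: a UMI of the pair was seen in 4 of 164 MC38 barcodes (2.44%) and 5 of 98 control barcodes (5.10%). The MC38 level rests on those 4 MC38 barcodes, and a single barcode held 77 of the 116 UMIs. Without that barcode, the MC38 mast cells or basophils had 73.1 CPM from 39 UMIs against the same control level (log2 2.15, interval 0.90 to 3.68), which is under the 50 UMIs asked for a call. Erythroid markers summed to 9182 CPM in MC38 and 35.8 CPM in control mast cells or basophils, and their part was not tested.

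In control cells the pair was spread over many barcodes, and in the MC38 library over few. A UMI of the pair was seen in 6.24% (220 of 3525, interval 5.46 to 7.09%) of MC38 classical monocytes, against 45.8% (341 of 745, interval 42.1 to 49.4%) of control ones. The shares were 5.68% (31 of 546, interval 3.89 to 7.96%) of MC38 T cells and 25.2% (209 of 831, interval 22.2 to 28.2%) of control T cells. Among cDC1 they were 17.0% (17 of 100, interval 10.2 to 25.8%) in the MC38 and 60.3% (70 of 116, interval 50.8 to 69.3%) in the control library, and among cDC2 they were 7.14% (5 of 70, interval 2.36 to 15.9%) in the MC38 and 66.7% (44 of 66, interval 54.0 to 77.8%) in the control library. The shares of control barcodes were the higher ones in all 4 classes, with no overlap of intervals.
No class surely lacks Hsp70. Erythroid-gated barcodes of the MC38 library, taken here for background, had a UMI in 2% (2 of 100, interval 0.243 to 7.04%) at a median depth of 5022.5 UMIs. MC38 B cells (1.63%, median depth 2835 UMIs) and MC38 plasmacytoid dendritic cells (1.85%, median depth 7646.5 UMIs) did not exceed it, and their shares are read as background. The interval of the erythroid share also holds the shares of MC38 classical monocytes (6.24%), T cells (5.68%) and Kupffer cells (3.08%). The erythroid share rests on 2 of 100 barcodes, and by itself it does not place those classes above background. The highest erythroid barcode held 1 UMI of the pair. At least 5 were held by 1.87% of MC38 classical monocytes, 1.83% of MC38 T cells and 0% of MC38 Kupffer cells. MC38 NK cells or type 1 innate lymphoid cells had a UMI in 0 of 204 barcodes, at a median depth of 4348 UMIs. Hepatocyte-gated barcodes had 0.739% in the MC38 and 1.14% in the control library, at median depths of 1386.5 and 1215.5 UMIs.
Thinning each barcode to 1000 UMIs, which left out 120 MC38 and 29 control immune-gated barcodes, kept the order. The thinned shares were 1.86% of MC38 and 11.2% of control immune-gated barcodes, 1.93% of MC38 and 17.2% of control classical monocytes, 1.29% of MC38 and 7.97% of control T cells, and 2.86% of MC38 and 34.8% of control cDC2 for Hspa1a and Hspa1b together.

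**Figure D2:**
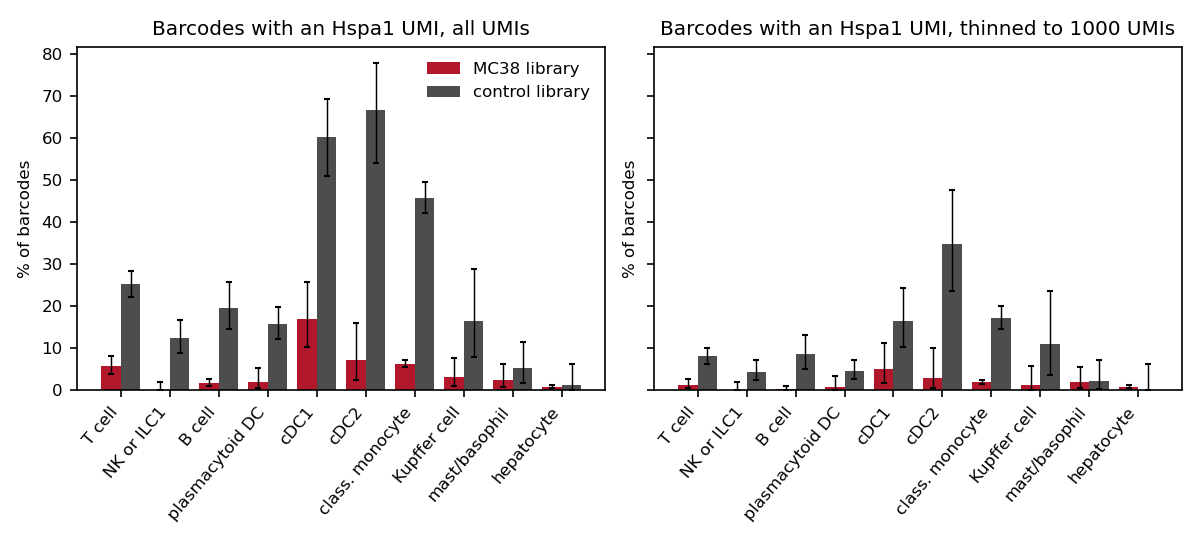
Share of barcodes (%) with at least 1 UMI of Hspa1a or Hspa1b by class, with all UMIs (left) and after thinning to 1000 UMIs (right), MC38 bars left of control bars, with exact binomial 95% intervals. Among the classes compared, control cDC2, cDC1 and classical monocytes stand highest, and the MC38 bars are at most 17.0% before thinning.

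The few monocyte-gated MC38 barcodes that held the pair held much of it. Of the 2034 UMIs in MC38 classical monocytes, 50% lay in 14 of 3525 barcodes and the top barcode held 205. In control monocytes, 50% of 1700 UMIs lay in 59 of 745 barcodes and the top barcode held 42. In T cells, 3 of 546 MC38 barcodes and 35 of 831 control barcodes held 50% of the pair's UMIs. T-gated barcodes with a UMI of the pair were deeper than those without, at median depths of 15237 and 5911 UMIs in the MC38 library. In the control library the depths were 14249 and 6403 UMIs.
Without the top barcode of each library, the pair was at 45.9 CPM in MC38 and 243 CPM in control monocytes (log2 -2.41). With classes taken from clusters of barcodes in place of the gate, the monocyte fold was log2 -4.17 and the T cell fold log2 -1.12 for Hspa1a and Hspa1b. The pair then had 318 UMIs in 2202 MC38 and 1298 UMIs in 631 control monocytes, and 62 UMIs in 421 MC38 and 236 UMIs in 658 control T cells. Most of its UMIs in gated MC38 monocytes, and in gated T cells of both libraries, thus lay outside the clusters of that name. Which class those barcodes belong to was not tested. In cDC1, where 1 MC38 barcode held 77 of 122 UMIs, the fold was larger without the top barcodes, at 33.0 CPM in MC38 and 272 CPM in control cells (log2 -3.04, interval -3.52 to -2.60).
Within the gate of classical monocytes the other heat shock members were higher in the barcodes that held the pair. In the MC38 library's classical monocytes, the 220 barcodes with a UMI of the pair had a median depth of 11352 UMIs and the 3305 without had 11416. Their Hsph1 level was 84.9 CPM with the pair and 20.3 CPM without it (log2 2.07, interval 1.84 to 2.28). Hsp90aa1 was at 835 CPM with the pair and 241 CPM without it (log2 1.80, interval 1.73 to 1.86). The ER member Hspa5 was also higher, at 728 CPM with the pair and 566 CPM without it (log2 0.36, interval 0.30 to 0.43), while Hsp90b1 was at 512 CPM with the pair and 496 CPM without it (log2 0.05, interval -0.03 to 0.13), with an interval that includes 0.
In control monocytes, the 341 barcodes with the pair had Hsph1 at 42.7 CPM with the pair and 21.4 CPM without it (log2 interval 0.58 to 1.42) and Hsp90aa1 at 489.7 CPM with the pair and 312 CPM without it (log2 0.65, interval 0.54 to 0.76), where 404 barcodes were without the pair. Dnajb1 was also higher beside the pair in both libraries, at log2 0.49 in MC38 and 0.71 in control monocytes. Hspa5 was at log2 0.43 beside the pair in control monocytes. T cells did not show this for every member: Dnajb1 was at log2 -0.00 (-0.55 to 0.51) in MC38 T cells, and Hsph1 was at log2 0.08 (-0.18 to 0.34) and Hspd1 was at log2 -0.21 (-0.38 to -0.04) in control T cells. These splits are of barcodes within 1 library and are descriptions.

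The balance of the copies differed between libraries. Hspa1a made up 60.0% (interval 58.2 to 61.7%) of the pair's UMIs in MC38 immune-gated barcodes and 47.3% (interval 45.8 to 48.8%) in control ones. In classical monocytes its share was 62.8% (interval 60.6 to 64.9%) in MC38 and 53.9% (interval 51.5 to 56.3%) in control. The lowest control share was in B cells, at 22.3% (interval 15.7 to 30.1%), and MC38 B cells had too few UMIs (27) to place it. The log2 fold was steeper for Hspa1b (immune-gated -2.27) than for Hspa1a (-1.53). How reads shared by the copies were assigned bears on this balance and was not tested.

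Counted over all 10 members, more were lower than higher in 8 of the 10 classes compared. Over all immune-gated barcodes 5 members were lower and 0 higher, beside 22.2% of all genes lower and 13% higher, and the members' median was log2 -0.53 against -0.15 for all genes tested. The 5 were Hspa1a, Hspa1b, Dnajb1, Hsph1 and Hsp90aa1. Hspa1a and Hspa1b share reads that cannot be assigned, so in these counts their calls are not independent of each other. Scaled by the median ratio of genes, which takes away the shift of the median gene, 3 of them remained called, and Dnajb1 (log2 -0.58) and Hsp90aa1 (log2 -0.50) did not. In T cells 2, the copies of the pair, were lower and 0 higher (all genes: 9.07% and 10.3%), and in classical monocytes 3 and 0 (15.8% and 11.6%). In B cells 4 and 0 (9.57% and 8.72%), in plasmacytoid dendritic cells 3 and 0 (8.88% and 4.99%) and in NK cells or type 1 innate lymphoid cells 2 and 0 (8.67% and 5.07%) were lower and higher. In cDC1 and cDC2 it was 5 lower and 0 higher each, beside 13% and 6.27% of genes in cDC1 and 11.5% and 9.75% in cDC2. Kupffer cells had 1 lower and 0 higher (17.3% and 19.1%), mast cells or basophils 0 lower and 2 higher (13.5% and 9.99%), and hepatocyte-gated barcodes 1 lower and 3 higher (24.1% and 27.6%). The shares in T cells, NK cells, Kupffer cells, mast cells and hepatocytes are near those of all genes or rest on 1 or 2 members. The 3 higher ones in hepatocytes (Hspa5, Hsp90b1 and Dnajb1) rest on 1 to 3 control UMIs each. Of the 4 lower ones in B cells, Hspa5 (log2 -0.55) and Hsp90b1 (log2 -0.13) were under 1.5-fold without barcodes of 10 or more plasma marker UMIs. The members under 50 UMIs, left out of the calls, were 4 in Kupffer cells, 2 each in NK cells, mast cells and hepatocytes, and 1 in B cells.

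**Figure D3:**
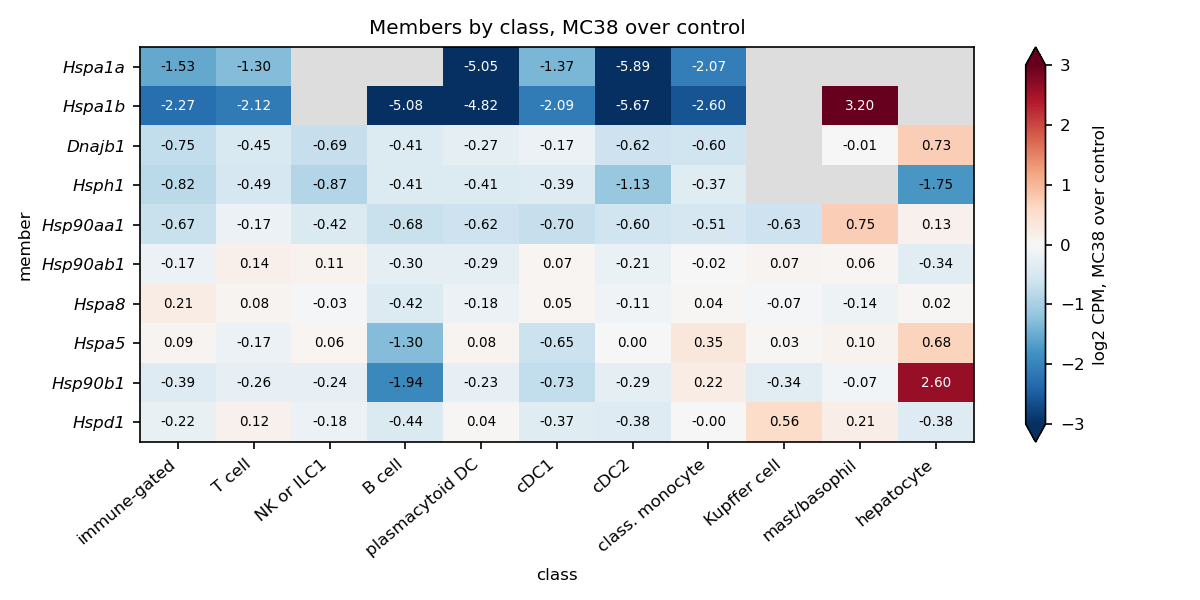
Log2 ratio of CPM, MC38 over control, for each member (rows) in all immune-gated barcodes and in each class (columns); grey cells had under 50 UMIs over both libraries, and the colour scale stops at 3. Blue fills the rows of Hspa1a and Hspa1b in T cells, plasmacytoid dendritic cells, cDC1, cDC2 and classical monocytes and the cell of Hspa1b in B cells. Hspa1b is red in mast cells or basophils (3.20). Both rows are grey in NK cells, Kupffer cells and hepatocytes, and Hspa1a is also grey in B cells and in mast cells or basophils. Hspa8 and Hsp90ab1 stay within 0.42 of 0.

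Over the immune-gated barcodes the partners of Hsp70 were lower too, by less, and the classes differed. Dnajb1, the J-domain protein that loads clients on Hsp70, had 41.5 CPM (2517 UMIs) in the MC38 library, against 69.7 CPM (1758 UMIs) in the control library over the immune-gated barcodes (log2 -0.75, interval -0.84 to -0.66). Its level was 35.4 CPM in MC38 and 53.4 CPM in control classical monocytes (log2 -0.60, interval -0.76 to -0.43), and 58.3 CPM in MC38 and 94.0 CPM in control NK cells (log2 -0.69, interval -1.15 to -0.25). T cells (56.1 CPM in MC38 and 76.8 CPM in control, log2 -0.45, interval -0.66 to -0.25) stayed under 1.5-fold. So did B cells (log2 -0.41, interval -0.82 to 0.01), plasmacytoid dendritic cells (-0.27, -0.65 to 0.09) and cDC1 (-0.17, -0.69 to 0.34), with intervals that include 0. In cDC2 Dnajb1 was called lower (log2 -0.62, interval -1.32 to 0.06), also with an interval that includes 0. Mast cells or basophils had the most Dnajb1 of all classes with at least 50 barcodes in both libraries, at nearly equal levels, with 177 CPM (95 UMIs) in the MC38 library, against 179 CPM (65 UMIs) in the control library (log2 -0.01, interval -0.48 to 0.46). The immediate-early list was high in the same class, at a summed 19301 CPM in MC38 and 18958 CPM in control mast cells, against 2523 and 3024 CPM over all immune-gated barcodes.
Hsph1, the Hsp110 exchange factor, had 28.3 CPM (1718 UMIs) in the MC38 library, against 50.0 CPM (1259 UMIs) in the control library over the immune-gated barcodes (log2 -0.82, interval -0.92 to -0.71). It was lower in NK cells, at 36.9 CPM in MC38 and 67.4 CPM in control cells (log2 -0.87, interval -1.45 to -0.32), and in cDC2, at 24.1 CPM in MC38 and 52.9 CPM in control cells (log2 -1.13, interval -2.01 to -0.31). In T cells it was at 47.3 CPM in MC38 and 66.6 CPM in control (log2 -0.49, interval -0.72 to -0.28), under the fold asked. Classical monocytes (log2 -0.37, interval -0.58 to -0.15) were under it too. So were B cells (-0.41, -0.87 to 0.07), plasmacytoid dendritic cells (-0.41, -0.92 to 0.08) and cDC1 (-0.39, -0.98 to 0.20), with intervals that include 0. The mix of classes differed between the libraries, and its part in the immune-gated folds of Dnajb1 and Hsph1 was not tested. Hepatocyte-gated barcodes had 21.0 CPM (144 UMIs) in the MC38 library, against 70.5 CPM (10 UMIs) in the control library (log2 -1.75, interval -2.67 to -0.66).

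Of the cytosolic Hsp90 genes, the inducible form was called lower and the constitutive form was not called. Hsp90aa1 had 335 CPM (20303 UMIs) in the MC38 library, against 534 CPM (13455 UMIs) in the control library (log2 -0.67, interval -0.70 to -0.64) over the immune-gated barcodes. By class, it was called lower in B cells (454 CPM in MC38 and 726 CPM in control, log2 -0.68), plasmacytoid dendritic cells (442 CPM in MC38 and 680.3 CPM in control, log2 -0.62), cDC1 (361 CPM in MC38 and 585 CPM in control, log2 -0.70), cDC2 (422 CPM in MC38 and 639 CPM in control, log2 -0.60) and Kupffer cells (384 CPM in MC38 and 593 CPM in control, log2 -0.63). Classical monocytes were at 279.8 CPM in MC38 and 398 CPM in control (log2 -0.51) and T cells at 509 CPM in MC38 and 572 CPM in control (log2 -0.17), under the fold asked. Scaled by the median ratio, B cells (-0.57), cDC2 (-0.55) and Kupffer cells (-0.57) were under that fold too, and Kupffer cells were at log2 0.20 with classes taken from clusters. Mast cells or basophils had 319 CPM (171 UMIs) in the MC38 library, against 189.8 CPM (69 UMIs) in the control library (log2 0.75, interval 0.34 to 1.17), the opposite direction.
Hsp90ab1 was at 1422 CPM in the MC38 library, against 1605 CPM in the control library over the immune-gated barcodes (log2 -0.17, interval -0.19 to -0.16) and was within 1.5-fold in each of the 10 classes, from log2 -0.34 in hepatocyte-gated barcodes to 0.14 in T cells. That direction equals the shift of the median gene (log2 -0.17), and scaled by the median ratio Hsp90ab1 was at log2 -0.01. Hspa8, the constitutive Hsc70, was at 2294 CPM in the MC38 library, against 1978 CPM in the control library (log2 0.21, interval 0.20 to 0.23), and lay between log2 -0.42 in B cells and 0.08 in T cells over the 10 classes. No class reached the immune-gated fold of Hspa8, and classical monocytes, a class high in Hspa8, were 3525 of 6742 MC38 and 745 of 3011 control immune-gated barcodes.
Among the 10 classes compared, Hspa8 had the same classes at the top and at the bottom in both libraries. cDC1 led with 2813 CPM in MC38 and 2717 CPM in control cells, followed by classical monocytes with 2518 CPM in MC38 and 2442 CPM in control cells, and the intervals of those 2 classes were apart in each library. T cells (1949.5 CPM in MC38 and 1839 CPM in control), cDC2 (1849.7 CPM in MC38 and 2001 CPM in control) and Kupffer cells (1835 CPM in MC38 and 1923 CPM in control) came next, and neighbours among these 3 had overlapping intervals in each library. B cells (1169 CPM in MC38 and 1559.6 CPM in control), NK cells (1498 CPM in MC38 and 1535 CPM in control), plasmacytoid dendritic cells (1288 CPM in MC38 and 1459 CPM in control) and mast cells or basophils (1140.3 CPM in MC38 and 1259.6 CPM in control) were lower in level, and hepatocyte-gated barcodes were last (1039 CPM in MC38 and 1022 CPM in control). Outside the compared classes, the lowest level was in MC38 erythroid-gated barcodes, at 139.8 CPM.

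The ER members differed from each other and by class. Over the immune-gated barcodes, Hspa5 (BiP) was at 510 CPM in MC38 and 478 CPM in control (log2 0.09, interval 0.06 to 0.12). Hsp90b1 (Grp94) was at 463 CPM in MC38 and 606 CPM in control (log2 -0.39, interval -0.41 to -0.36), lower in MC38 as the inducible heat shock members were. Neither was called. In classical monocytes Hspa5 (BiP) had 577 CPM (22998 UMIs) in the MC38 library, against 452 CPM (3088 UMIs) in the control library (log2 0.35, interval 0.30 to 0.41) and Hsp90b1 (Grp94) had 497 CPM (19815 UMIs) in the MC38 library, against 428 CPM (2920 UMIs) in the control library (log2 0.22, interval 0.16 to 0.27). Both values were higher in MC38, under 1.5-fold. In cDC1 both were lower: Hspa5 had 448 CPM in MC38 and 704 CPM in control cells (log2 -0.65, interval -0.80 to -0.51) and Hsp90b1 had 400.2 CPM in MC38 and 666 CPM in control cells (log2 -0.73, interval -0.88 to -0.59). In T cells Hspa5 stood at 364 CPM in MC38 and 409 CPM in control (log2 -0.17) and Hsp90b1 at 364 CPM in MC38 and 435 CPM in control (log2 -0.26). Hsp90b1 was also lower, under 1.5-fold and with intervals below 0, in NK cells (log2 -0.24), plasmacytoid dendritic cells (-0.23), cDC2 (-0.29) and Kupffer cells (-0.34). The intervals of Hspa5 include 0 in these classes (log2 0.06, 0.08, 0.005 and 0.03).
The largest difference of the ER members was in the B cell gate. Hspa5 was at 253 CPM (917 UMIs) in the MC38 library, against 623 CPM (722 UMIs) in the control library (log2 -1.30, interval -1.44 to -1.16), and Hsp90b1 at 347 CPM (1256 UMIs) in the MC38 library, against 1332 CPM (1543 UMIs) in the control library (log2 -1.94, interval -2.05 to -1.83). Plasma cell markers moved with them: all 8 were detected in each library, and their summed level was 456 CPM in MC38 and 4127 CPM in control B-gated barcodes. Leaving out barcodes with 10 or more plasma marker UMIs removed 7 of 981 MC38 and 9 of 204 control barcodes. In the rest, Hspa5 had 249 CPM in MC38 and 366 CPM in control B cells (log2 -0.55, interval -0.73 to -0.37), and Hsp90b1 had 333 CPM in MC38 and 366 CPM in control B cells (log2 -0.13, interval -0.30 to 0.04). Neither was called then, a split chosen after the data were seen, whereas the inducible pair stayed at 7.60 CPM in MC38 and 138 CPM in control B cells (log2 -4.18).

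**Figure D4:**
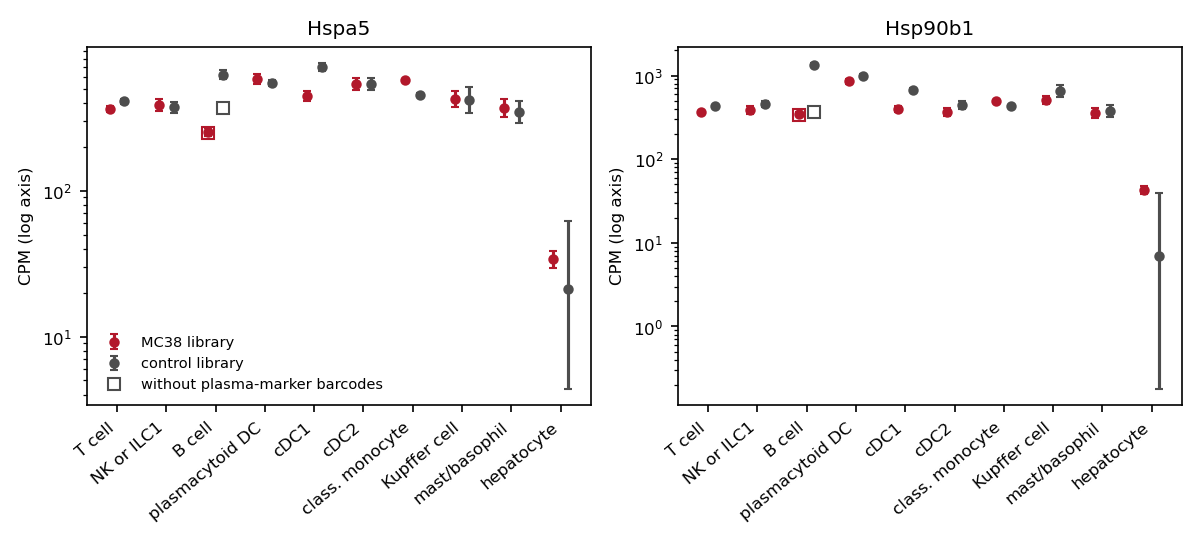
Levels (CPM, log axis) of Hspa5 (left) and Hsp90b1 (right) by class, MC38 left of control, with exact Poisson 95% intervals; open squares give B cells without barcodes of 10 or more plasma marker UMIs. The control B cell point of Hsp90b1 stands at 1332 CPM and its square at 366 CPM, close to the MC38 points.

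Plasmacytoid dendritic cells, a secretory class, had the most Hsp90b1 in the MC38 library and, after B cells, in the control library, at 849 CPM in MC38 and 999 CPM in control cells, with intervals apart from the next class in both. They also led MC38 cells for Hspa5, at 582 CPM, where the interval overlapped that of classical monocytes. Hepatocyte-gated barcodes had little of either ER member. Hspa5 stood there at 33.8 CPM (232 UMIs) in the MC38 library, against 21.1 CPM (3 UMIs) in the control library (log2 0.68, interval -0.89 to 2.96) and Hsp90b1 at 42.8 CPM (294 UMIs) in the MC38 library, against 7.05 CPM (1 UMI) in the control library (log2 2.60, interval 0.11 to 7.91). Both folds rest on a control gate of 88 barcodes.
Hspd1, the mitochondrial Hsp60, had its top level in hepatocyte-gated barcodes, at 672 CPM (4613 UMIs) in the MC38 library, against 874 CPM (124 UMIs) in the control library (log2 -0.38, interval -0.64 to -0.11). Among the other classes compared, the next was Kupffer cells in the MC38 library (226 CPM) and B cells in the control library (192 CPM), each with an interval apart from the hepatocytes. No class passed 1.5-fold between libraries for Hspd1, and the immune-gated levels were 121 CPM in MC38 and 140.1 CPM in control (log2 -0.22, interval -0.28 to -0.16). Hepatocyte markers themselves summed to 393 CPM in MC38 and 114 CPM in control immune-gated barcodes, and they were the higher in the MC38 library in each immune class compared. Their part in the members' levels was not tested.

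Across the 26 sums of a class in a library with at least 50 barcodes, the genes with the most similar pattern were found among 2986 genes with a mean of at least 50 CPM. The measure was Pearson's r of log2(CPM + 10), and the sums share libraries and depth, so it is a description. Hspa5 was most like Dnajb11 (r = 0.968), an ER J-domain cochaperone of BiP, Uggt1 (0.962), Tmed9 (0.946), Ssr1 (0.942) and Stt3a (0.941), and its likeness to the other ER member, Hsp90b1, was 0.946. Hspa8 was most like Eif4h (0.938), Bnip2 (0.931), Eif3k (0.928), Pcbp2 (0.928) and Eif3a (0.919). The inducible Hsp70 pair had no such close partner: Wsb1 (0.667), Plekho2 (0.633), Lmo4 (0.617), Fam105a (0.606) and Mob1a (0.592) came first, and Hspa8 was at 0.425.

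The libraries differed in mitochondrial share, so levels were also taken within bins of 0 to 5%, 5 to 10%, 10 to 20% and 20 to 30% mitochondrial UMIs, with no upper limit of 10% in this step. In immune-gated barcodes of the MC38 library, the Hspa1a and Hspa1b pair was at 61.4, 39.0, 69.1 and 32.3 CPM over the 4 bins. In the control library it was at 265, 163, 125 and 76.6 CPM. The control level fell at each step, whereas the MC38 level went down, up and down again.
Hspa8 was at 2385, 2214, 1577 and 1164 CPM in the MC38 library over the same bins, and at 2197, 1930.5, 1619.7 and 1322 CPM in the control library. Hspa5 went through 543, 482, 398 and 299.9 CPM in the MC38 library and 607, 451, 400.1 and 350.0 CPM in the control library. Both members were at their lowest in the bin of 20 to 30% in each library. Dnajb1 varied less in control cells, from 70.9 CPM in the first bin to 64.8 CPM in the last.
The mix of classes changed over the bins as well. Classical monocytes were 1765 of 2741 MC38 and 193 of 500 control immune-gated barcodes at 0 to 5%, and 29 of 660 MC38 and 42 of 2094 control ones at 20 to 30%. In classical monocytes alone, the pair was at 53.4, 48.3, 177 and 272 CPM in the MC38 library and at 298, 231, 273 and 169 CPM in the control library. The MC38 level was thus highest at 20 to 30% in that class, from 19 UMIs in 29 barcodes. Within T cells alone, the pair was at 79.0, 14.8, 9.85 and 11.4 CPM in the MC38 library and at 131, 124, 103 and 54.4 CPM in the control library. T cell Hspa8 was at 2019.7, 1909, 1573 and 1518 CPM in MC38 and at 1953, 1827, 1588 and 1343 CPM in control. The levels of both were lower in the bin of 20 to 30% than in that of 0 to 5% within this class too. In MC38 T cells the pair had 205 UMIs with a limit of 10% and 217 with a limit of 30%, so its values above 10% rest on few UMIs. At 0 to 5%, 1 barcode held 64 of its 155 UMIs.
Set against 5 to 10%, the bin of 20 to 30% had fewer UMIs per 1000000 of several members. In immune-gated barcodes, 3 of 10 members were at least 1.5-fold lower and 0 higher in the MC38 library, beside 17.6% of all genes lower and 24.5% higher, and 3 and 0 in the control library, beside 15% and 12.6%. In control T cells 4 were lower and 0 higher, beside 11.5% and 6.94%, and in control B cells 6 and 0, beside 8.23% and 9.4%. Classical monocytes had 1 member lower and 3 higher in the MC38 library, beside 32.3% and 33.7%, and 1 and 0 in the control library, beside 15.7% and 11.5%.

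**Figure D5:**
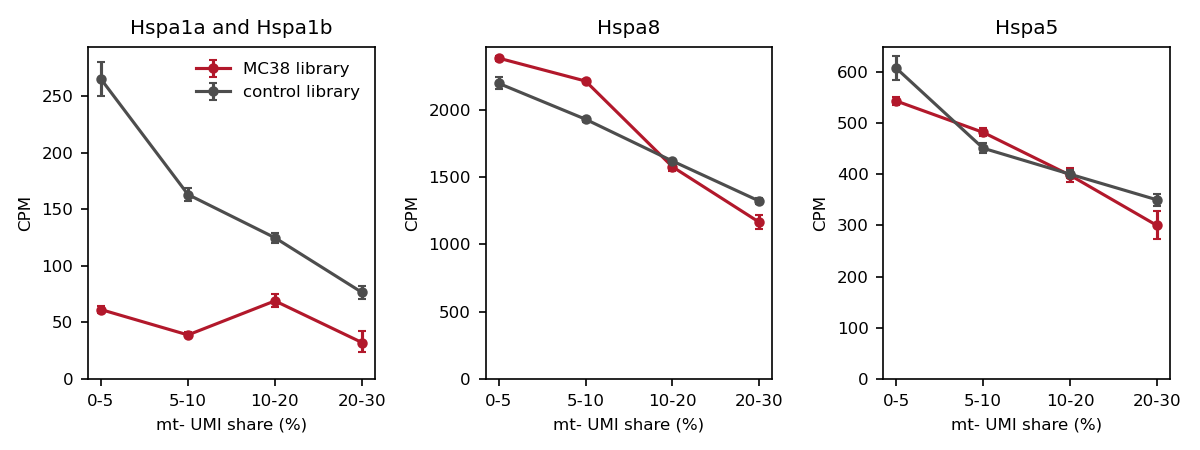
Levels (CPM) of the Hspa1a and Hspa1b pair, Hspa8 and Hspa5 in immune-gated barcodes by bin of mitochondrial UMI share, MC38 in red and control in grey, with exact Poisson 95% intervals. The control pair goes down at each bin, from 265 to 76.6 CPM, and stands above the MC38 pair in all 4 bins.

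The lower level of the pair in the MC38 library was present within each bin over the immune-gated barcodes, and in classical monocytes in each bin that held enough barcodes to compare. Immune-gated barcodes had 61.4 CPM in MC38 and 265 CPM in control barcodes (log2 -2.11, interval -2.22 to -2.00) at 0 to 5% and 39.0 CPM in MC38 and 163 CPM in control barcodes (log2 -2.06, interval -2.16 to -1.97) at 5 to 10%. At 10 to 20% they had 69.1 CPM in MC38 and 125 CPM in control barcodes (log2 -0.85, interval -0.99 to -0.72), and at 20 to 30% 32.3 CPM in MC38 and 76.6 CPM in control barcodes (log2 -1.25, interval -1.67 to -0.84). The difference was smaller in the last 2 bins, and the difference between bins was not tested. Classical monocytes had 53.4 CPM in MC38 and 298 CPM in control barcodes (log2 -2.48, interval -2.63 to -2.33) at 0 to 5%, 48.3 CPM in MC38 and 231 CPM in control barcodes (log2 -2.26, interval -2.38 to -2.13) at 5 to 10% and 177 CPM in MC38 and 273 CPM in control barcodes (log2 -0.62, interval -0.83 to -0.42) at 10 to 20%. At 20 to 30% the order was the opposite, with 272 CPM (19 UMIs in 29 barcodes) in MC38 and 169 CPM (47 UMIs in 42 barcodes) in control monocytes, under the 50 barcodes asked for a fold. T cells had 79.0 CPM in MC38 and 131 CPM in control barcodes (log2 -0.73, interval -1.11 to -0.35) at 0 to 5% and 14.8 CPM in MC38 and 124 CPM in control barcodes (log2 -3.06, interval -3.51 to -2.65) at 5 to 10%, and the first of these holds the barcode with 64 UMIs. In B cells the pair was at 6.21 CPM in MC38 and 123 CPM in control barcodes (log2 -4.31, interval -5.07 to -3.63) at 5 to 10% and at 31.5 CPM in MC38 and 77.0 CPM in control barcodes (log2 -1.29, interval -1.65 to -0.93) at 10 to 20%.

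The rest of the protein-folding network was read from lists of related genes over all immune-gated barcodes, where 13% of all genes were higher and 22.2% lower. The mix of classes differed between the libraries, and its part in the counts and folds of all these lists was not tested. Of 31 cytosolic chaperones and cochaperones outside the members, 4 were higher and 6 lower (median log2 -0.23, against -0.15 for all genes). Dnaja1, another J-domain partner of Hsp70, was at 187 CPM in MC38 and 346 CPM in control cells (log2 -0.89) and Dnajc7 at 131 CPM in MC38 and 237 CPM in control cells (log2 -0.86). Fkbp5, a glucocorticoid-induced cochaperone of Hsp90, was at 64.9 CPM in MC38 and 22.7 CPM in control cells (log2 1.51) and in classical monocytes at 71.8 CPM in MC38 and 12.2 CPM in control cells (log2 2.56). The gene of the regulator itself, Hsf1, was at 12.4 CPM in MC38 and 14.9 CPM in control cells (log2 -0.26).
Of the 13 subunits of the cytosolic chaperonin and prefoldin, 0 were higher and 0 lower, and of the 12 mitochondrial chaperones and proteases 0 and 0. Hspe1, the partner of Hspd1, was at 318 CPM in MC38 and 387 CPM in control cells (log2 -0.28).
Among 33 genes of ER folding and the unfolded protein response, 2 were higher and 3 lower. P4hb, a protein disulfide isomerase, was at 306 CPM in MC38 and 144 CPM in control cells (log2 1.09), Ssr4 at 559 CPM in MC38 and 361 CPM in control cells (log2 0.63) and Xbp1, a transcription factor of that response, at 304 CPM in MC38 and 208 CPM in control cells (log2 0.55). The lower ones were Derl3 (log2 -3.04), Mzb1 (log2 -1.88) and Txndc5 (log2 -0.68), which plasma cells express strongly, and plasma cell markers summed to 39.5 CPM in MC38 and 1454 CPM in control immune-gated barcodes. Plasmacytoid dendritic cells were 162 of 6742 MC38 and 378 of 3011 control immune-gated barcodes. In them the ER list summed to 6610 CPM in MC38 and 6487 CPM in control. The part of either class in these folds was not tested. In classical monocytes 8 of 32 were higher and 1 lower, with the ER chaperone Calr at 967 CPM in MC38 and 606 CPM in control cells (log2 0.67). In B cells 19 of 32 were lower and 0 higher; without the plasma marker barcodes 3 of 31 were lower and 0 higher.

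Of 13 genes of the integrated stress response, 7 were higher and 0 lower over the immune-gated barcodes (median log2 0.66). The list's sum differed by class, at 480 CPM in MC38 and 338 CPM in control T cells, below the sums of classical monocytes given further on. The part of the class mix in this count was not tested. Slc7a11, the cystine transporter, was at 20.5 CPM in MC38 and 3.85 CPM in control cells (log2 2.42) and Atf5 at 22.1 CPM in MC38 and 7.26 CPM in control cells (log2 1.60). The central factor Atf4 was at 126 CPM in MC38 and 127 CPM in control cells (log2 -0.01), and its target Ddit3 at 16.4 CPM in MC38 and 23.4 CPM in control cells (log2 -0.51). In T cells 6 of 11 were higher and 1 lower. In classical monocytes 6 of 12 were higher and 1 lower, and the list summed to 713 CPM in MC38 and 754 CPM in control monocytes. The lower one was Atf3, a factor of that response, at 51.6 CPM in MC38 and 99.0 CPM in control cells (log2 -0.94).
Immediate-early genes, which also respond to tissue handling, were mixed: 2 of 14 were higher and 6 lower. Nr4a1 was at 27.5 CPM in MC38 and 61.8 CPM in control cells (log2 -1.17), Jund at 382 CPM in MC38 and 709 CPM in control cells (log2 -0.89) and Btg2 at 173 CPM in MC38 and 337 CPM in control cells (log2 -0.96), whereas Ier3 was at 203 CPM in MC38 and 38.6 CPM in control cells (log2 2.40). Summed over the list, MC38 classical monocytes had 2416 CPM and control ones 3316 CPM, and MC38 and control T cells had 2014 and 2194 CPM. These sums were lower in MC38, as the pair was, by less than 1.5-fold, and the part of tissue handling in the pair's level was not tested. Of 10 ubiquitin and autophagy genes, 2 were higher and 0 lower, with the heme oxygenase gene Hmox1 at 121 CPM in MC38 and 38.9 CPM in control cells (log2 1.63).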

How the data were processed

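Mononuclear cells of 1 pooled control and 1 pooled MC38 liver library were profiled by droplet 5-prime sequencing, per the labels' protocols. The authors deposited UMI counts per gene and barcode; the build is GRCm38.p6, and the tools named are R 3.6.0, Seurat 2.3.4, Cell Ranger 2.2, bcl2fastq and STAR, without roles, per the submitters' processing notes. The matrix headers name a software version other than these, so which version made the matrices is not settled. No source states whether counting used the strand.

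Barcodes with under 200 genes (255 MC38, 113 control), scrublet doublet calls (1727 MC38, 617 control) or over 10% mitochondrial UMIs (6608 MC38, 10665 control) were left out. These filters overlap. A class needed at least 3 distinct markers and a lead of 1 over any other class, and hepatocyte and erythroid classes also 1% of UMIs in their markers; 1174 MC38 and 499 control barcodes lay at the edge of the gate. UMIs were summed per class and library and divided by non-mitochondrial totals. Classes were compared with at least 50 barcodes per library. Intervals were exact Poisson, binomial or conditional binomial at 95%; they treat UMIs as independent. No test between groups was possible. The members and lists were chosen with earlier results of these data known. From each list, up to 3 higher and 3 lower genes with at least 50 UMIs were eligible to be named, ranked by the interval end nearest 0, plus Hsf1, Xbp1, Atf4 and Ddit3; Hspe1 and Hmox1 came from the same ranking. The steps were tested on simulated data. Alternatives were doublets kept, 500 genes, mitochondrial limits of 5% and 30%, other scalings, barcode means, thinning to 1000 UMIs, classes from clusters, a stricter gate, and 2 added after the data were seen. Tools were Python 3.11.15, numpy 2.4.6, scipy 1.17.1, pandas 2.3.3, scanpy 1.11.5 and matplotlib 3.10.9. Sequences were from RefSeq.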

Additional observations from a re-analysis of the deposited data

Results flagged for a closer look

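For 3 members the MC38 library was called higher than the control library in one class and called lower in another with intervals apart from 0 in both, and in each case the difference between the classes was not tested. Hspa1b was at log2 3.20 (MC38 over control) in mast cells or basophils, where 4 of 164 MC38 barcodes held the pair, and at log2 -5.67 in cDC2. Hsp90aa1 was at log2 0.75 in mast cells or basophils and at log2 -0.68 in B cells. Hsp90b1 was at log2 2.60 in hepatocyte-gated barcodes, where the control library had 1 UMI, and at log2 -1.94 in B cells, where it was at log2 -0.13 without the barcodes rich in plasma cell markers.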

How the results depend on the processing

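The Hspa1a and Hspa1b pair was lower in the MC38 library in T cells, B cells, plasmacytoid dendritic cells, cDC1, cDC2, classical monocytes and Kupffer cells under every alternative that gave a value, and higher in mast cells or basophils under every one. The values ran from -5.35 to -4.39 in plasmacytoid dendritic cells, -3.29 to -1.47 in cDC1, -6.44 to -3.47 in cDC2, -4.43 to -2.06 in Kupffer cells and 2.72 to 4.41 in mast cells or basophils. NK cells, with 0 MC38 UMIs, and hepatocytes are not in that statement. As reported, the value of mast cells or basophils rests on 4 of 164 MC38 barcodes. In T cells (log2 -1.70 as reported) the pair was at -0.73 with at most 5% mitochondrial UMIs, -1.44 thinned, -1.12 with classes from clusters and -2.20 without the barcode holding most of its UMIs. In B cells (-4.01) it was at -2.13 with at most 30% mitochondrial UMIs and -4.67 thinned, and the limit of 5% left too few barcodes for a value. In classical monocytes (-2.29) it was at -2.48 and -2.17 with limits of 5% and 30%, -1.69 as a mean over barcodes, -1.98 thinned, -4.17 with classes from clusters and -2.41 without the top barcode. The count of members lower over all immune-gated barcodes was 5, and 3 when scaled by the median ratio. Among the folds called as reported, directions turned for Dnajb1 in cDC2 (1.89 thinned, from 4 MC38 UMIs and 1 control UMI), Hsp90aa1 in Kupffer cells (0.20 with classes from clusters), Hspa5 in hepatocytes (-0.57 with the limit of 30%, -0.33 as a mean over barcodes) and Dnajb1 in hepatocytes (-0.17 with the limit of 30%, -0.85 thinned). For B cells, Hsp90b1 was at -0.69 and Hspa5 at -0.42 with the limit of 30%. Of all log2 folds recomputed, 1130 stayed within the interval of the reported fold and 345 left it. The other 6 were of folds called as reported, and turned direction. A change of sign in a fold that was not called is not among the 6. The cause of these shifts was not tested. No paired analysis was possible because each group is 1 library.

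One library of 3 pooled mice per group means that library, mouse and tumor cannot be told apart. Median depth over all barcodes differed (3141.5 UMIs per barcode in the MC38 library and 5470.5 in the control library). In the kept immune-gated barcodes the order was the opposite, at 9687.5 UMIs in the MC38 library and 7866 in the control library. Whether capture and handling differed was not tested. Levels in Kupffer cells, cDC2 and hepatocytes rest on few control or MC38 barcodes, and Hspa1a and Hspa1b cannot be separated where their sequences are the same.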
